A study of Mus musculus with 18 samples.

Results

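The beta-globin cluster and its control region were examined as the Hbb promoters contact them, in a window of 200 kb on chromosome 7 (mm9), whose listed fragments run from base 110900226 to base 111099537. The members were all DpnII fragments lying inside this window that are listed in the promoter capture, chosen by position alone and by no measured value. The genome holds 490 DpnII fragments wholly inside the window, 409 of them are listed with a value for some viewpoint, and 408 hold at least 1 read from the Hbb promoters, out of 78338 fragments listed and 27126 with such a read on the whole chromosome. NG Capture-C is a chromosome conformation method in which crosslinked chromatin is cut with DpnII (at GATC), ligated, and pulled down with oligonucleotides for chosen fragments, so that each read pairs the captured fragment with a DNA fragment that was near it in the nucleus.

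3 cell types were compared with 3 libraries each. Mouse embryonic stem cells (ESC, day 0) and definitive endoderm made from them as embryoid bodies with activin A and EGF (DE, day 5) were of strain 129/Sv//EV, and erythrocytes, taken from spleens of mice given phenylhydrazine, a drug that destroys red cells and so drives new ones to form, were C57BL/6 (day 5). Strain and cell type therefore cannot be told apart in any comparison with erythrocytes. The erythrocyte suspension came from whole spleens by dissociation and filtering with no sorting stated, the ESC came from an established culture, and nothing says whether the libraries of a cell type came from separate cultures or animals, so p-values measure only the spread between these libraries. No RNA was measured here, so the labelled cell types could not be checked against markers.

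The mouse beta-like globin genes lie in 1 cluster and are all transcribed from the same strand. Hbb-b1 and Hbb-b2 encode the adult beta chains of haemoglobin, Hbb-bh1 and Hbb-y the embryonic ones. Upstream of Hbb-y lies the locus control region, a group of DNase I hypersensitive sites bound by GATA1, NF-E2 and other erythroid factors that is required for high globin expression in red cells and is known to loop onto the active globin promoter. Olfactory receptor genes flank the cluster on both sides and are silent in red cells.

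On mm9 the annotation places Hbb-b2 at chr7:110961038-110962510, Hbb-b1 at chr7:110975048-110976610, the pseudogene Hbb-bh3 at chr7:110981145-110982237, Hbb-bh2 at chr7:110987659-110988941, Hbb-bh1 at chr7:110990150-110991678, the pseudogene Hbb-bh0 at chr7:110998534-110998662 and Hbb-y at chr7:111000259-111001754. The Hbb viewpoint pools both adult promoters: the files hold no value at chr7:110961283-110963273 around Hbb-b2 and at chr7:110975292-110977138 around Hbb-b1, and these gaps are called the captured zones here. The control region was taken as the 23 kb from 2 to 25 kb upstream of the start of Hbb-y (chr7:111003755-111026754), since the files name no hypersensitive site. It holds no annotated gene and 48 of the listed fragments. A mirror window at the same distances on the other side of the midpoint of the 2 captured zones (chr7:110911667-110934666), which holds olfactory receptor genes, served as a reference for distance. The rest of the window was divided into the 3′ flank below Hbb-b2 (130 fragments), the stretch between the adult promoters (33 fragments), the embryonic globin stretch from above Hbb-b1 to 2 kb upstream of Hbb-y (53 fragments) and the 5′ flank (145 fragments).

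2 neighbouring sequences of the control region are shown: the fragment that carries a pair of NF-E2 motifs, for that motif, and the motif-richest stretch of the next fragment, which is 1 of the 3 with the highest erythrocyte signal. Capitals mark TGAGTCA (bound by NF-E2) and AGATAA (bound by GATA factors) on either strand.
Fragment with the NF-E2 pair, chr7:111009552-111009747, plus strand: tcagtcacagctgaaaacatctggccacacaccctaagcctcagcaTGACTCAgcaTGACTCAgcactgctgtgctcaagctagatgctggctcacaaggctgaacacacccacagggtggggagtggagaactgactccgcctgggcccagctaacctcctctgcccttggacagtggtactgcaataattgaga
Stretch of the neighbouring fragment, chr7:111010018-111010317, plus strand: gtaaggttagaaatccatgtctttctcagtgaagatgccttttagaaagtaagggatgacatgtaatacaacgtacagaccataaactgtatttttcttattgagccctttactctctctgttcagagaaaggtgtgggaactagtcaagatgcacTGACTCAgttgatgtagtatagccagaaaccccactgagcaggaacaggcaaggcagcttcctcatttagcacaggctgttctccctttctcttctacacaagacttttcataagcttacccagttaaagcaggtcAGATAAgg
The first holds 2 matches to TGAGTCA on the minus strand, 3 bases apart, an arrangement known from the second hypersensitive site of the control region. 2 matches on the same strand with 3 bases between them occur 8 times on chromosome 7, 1 of them in the window. The second sequence holds 1 match to each motif. Of all stretches of 300 bases on chromosome 7, 17.9% hold AGATAA and 4.71% hold TGAGTCA, and of stretches of 196 bases 3.08% hold TGAGTCA. Across the control region TGAGTCA was found 9 times, in 8 fragments, AGATAA 22 times, in 15 fragments, and CCACACCC (bound by KLF1) and the core of the CTCF motif not at all. In this order, the window of 200 kb held 37, 195, 7 and 6 matches, and chromosome 7 held 165, 688, 74.7 and 61.8 per Mb. The AGATAA count was near the rate of the window. At these rates few or no matches to the last 2 motifs would fall in a stretch of 23 kb. A match describes letters and is not a measured binding site.

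The deposited values are scaled to 100000 interactions per library and were rescaled to 100000 interactions on chromosome 7, and all signals below are in this unit. The Hbb viewpoint had 5349 to 8005 reads in ESC, 14885 to 26419 in DE and 6730 to 25752 in erythrocytes. Erythrocyte replicate 2 stood apart: 71.1% of its reads fell on chromosome 7, against 26.5% and 22.1% in replicates 1 and 3, while ESC and DE libraries had 62.5% to 72.1%. The same split was seen over the 6 viewpoints of the promoter capture, with a median of 72.5% on the viewpoint's own chromosome in replicate 2 and 33.8% and 32.2% in the others. The part of this difference in the results was not tested, so values are given with and without replicate 2, and scaling to all interactions is given where it matters.

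The window took a larger part of the chromosome 7 interactions in erythrocytes than in ESC or DE. It held 27.6%, 25.8% and 24.5% in ESC, 20.4%, 19.7% and 20.0% in DE and 40.4%, 54.3% and 56.6% in erythrocytes. These 3 sets did not overlap, with means of 26.0% ± 1.59 in ESC, 20.0% ± 0.339 in DE and 50.4% ± 8.78 in erythrocytes (SD, n = 3). The widest 95% Wilson interval of 1 library, which covers counting error only, was 54.5% to 58.7%. The exact two-sided permutation test gave p = 0.1 for each of the 3 pairs (0.1 after Benjamini-Hochberg adjustment over them), the smallest p that 3 against 3 allows. As a part of all interactions the picture was different: ESC had 19.9%, 18.5% and 15.6%, DE 13.4%, 13.0% and 12.5%, and erythrocytes 10.7%, 38.6% and 12.5%. On that scale replicate 2 alone lay above ESC, and the exact permutation test gave p = 1 against ESC and p = 0.9 against DE (n = 3).

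Contact with the control region was 7.12-fold higher in erythrocytes than in ESC and 8.33-fold higher than in DE. Its summed signal was 2104, 1922 and 1316 in ESC, 1586, 1425 and 1463 in DE, and 10097, 17899 and 10772 in erythrocytes. All 3 erythrocyte libraries lay far above the other 6, and replicate 2 was the highest of them. The log2 difference was 2.83 ± 0.31 against ESC (SE, limma adjusted p = 0.000473) and 3.06 ± 0.25 against DE (limma adjusted p = 0.000317). Without erythrocyte replicate 2 it was 2.57 against ESC and 2.80 against DE. Scaled to all interactions it was 1.84 against ESC (limma adjusted p = 0.0176) and 2.16 against DE (limma adjusted p = 0.0172), still past the threshold. On that scale the control region held 1.52%, 1.37% and 0.841% in ESC and 1.04%, 0.939% and 0.914% in DE. In erythrocytes it held 2.68%, 12.7% and 2.38%, all above the other cell types but with replicate 2 far apart. A fit without replicate 2 was not run on that scale. On the chromosome 7 scale DE and ESC differed by -0.23 ± 0.16 (limma adjusted p = 0.672), so no difference between them was detectable.

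The mirror window did not share this rise. Its signal was 1807, 1660 and 2077 in ESC, 1437, 1569 and 1656 in DE and 1026, 1734 and 601 in erythrocytes. Erythrocyte replicate 2 lay among the other cell types and replicates 1 and 3 lay below them, and the log2 differences were -0.84 ± 0.41 against ESC and -0.60 ± 0.40 against DE (limma adjusted p = 0.091 and 0.219). Distances match only about the midpoint of the captured zones. Windows mirrored about Hbb-b1 alone held mean signals per kb of 85.5 in ESC, 71.8 in DE and 72.9 in erythrocytes. About Hbb-b2 alone these were 58.2, 48.0 and 32.0, and in the control region 77.4, 64.8 and 562. Within each library, where depth and scaling cancel, the control region held 1.16, 1.16 and 0.64 times the reads per kb of its mirror in ESC, 1.10, 0.91 and 0.88 times in DE, and 9.78, 10.3 and 17.3 times in erythrocytes. Both sides were thus near even in ESC and DE, apart from 0.64 in ESC replicate 3. The erythrocyte ratios lay far above those of ESC and DE. The difference in the mean log2 ratio was 3.66 against ESC and 3.65 against DE (exact two-sided permutation p = 0.1 each, n = 3, and 0.15 adjusted over the 3 pairs). The second, enhancer capture of the same libraries, which also holds Hbb columns, gave geometric means of 1.01 in ESC, 0.853 in DE and 7.95 in erythrocytes. It is a second pull-down of the same 3C material and no independent replicate, and its Hbb columns hold only 521 to 973 reads in ESC. Which Hbb fragments it captured was not checked here, and its profile differed. In ESC the Hbb-b1 flanks over the Hbb-b2 flanks stood at 10.4 in the promoter capture and 0.893 in the enhancer capture (geometric means). The mirror window may therefore not match the control region in distance for that capture.

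**Figure D1:**
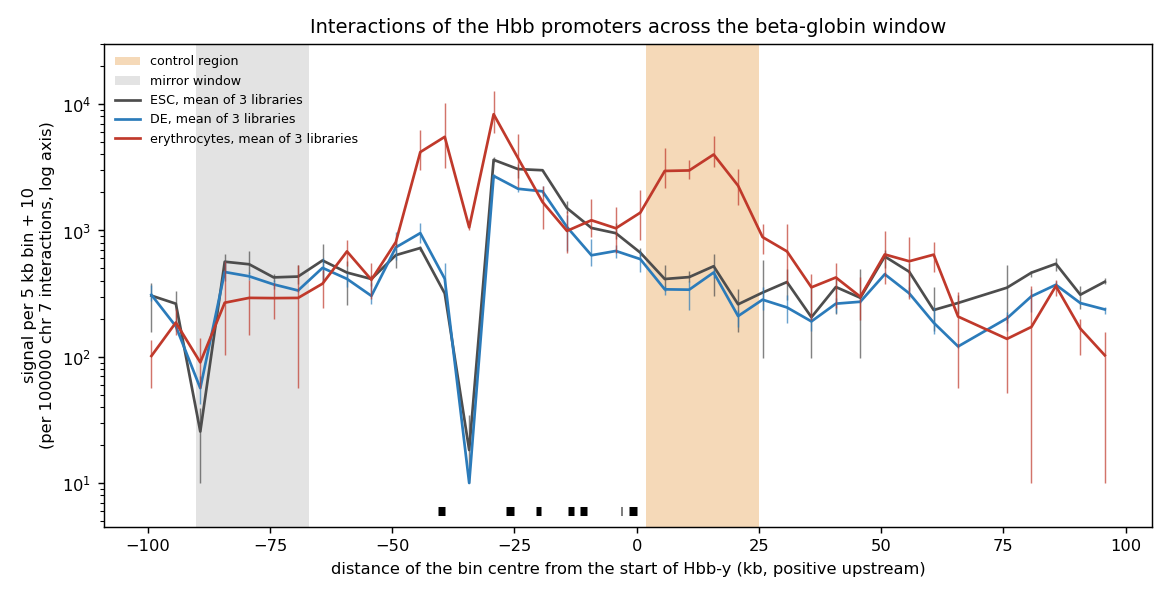
Signal of the Hbb promoters in 5 kb bins (vertical axis, per 100000 chromosome 7 interactions plus 10, log scale) against the distance from the start of Hbb-y (horizontal axis, kb), as the mean (lines) and the lowest and highest (thin bars) of 3 libraries per cell type. Black blocks are the beta-like globin genes, from Hbb-b2 on the left to Hbb-y on the right. The erythrocyte line stands above both others across the control region and around Hbb-b2. The 3 lines run closer together over the embryonic genes, except in the bin that holds Hbb-y and the start of the control region. The mean signal of that bin is 1374 in erythrocytes, 658 in ESC and 583 in DE.

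The rise ran across the whole control region. In the 4 bins of 5 kb centred 5.75, 10.7, 15.7 and 20.7 kb upstream of Hbb-y, the erythrocyte mean was 2952, 2979, 3987 and 2253, against 403, 417, 511 and 250 in ESC and 332, 330, 455 and 200 in DE. The log2 differences from ESC were 2.79, 2.80, 2.97 and 3.14 (limma adjusted p = 0.000473 for each). In the next bin, centred 25.7 kb upstream, the erythrocyte mean was 877 and the difference from ESC had fallen to 1.77 (limma adjusted p = 0.0309), and 30.7 kb upstream, at the olfactory receptor gene Olfr66, it was 0.70 (limma adjusted p = 0.227). Against DE the bins at 25.7 and 30.7 kb were both still higher, by 1.64 and 1.36 (limma adjusted p = 0.00647 and 0.0426). The bin that holds Hbb-y also holds the start of the control region. Centred 0.747 kb upstream of the start of Hbb-y, it was higher than in DE as well, by 1.14 (limma adjusted p = 0.0412). Against ESC that bin differed by 0.95 (limma adjusted p = 0.0601). A separate bin in the 5′ flank 60.7 kb upstream of Hbb-y was higher as well, with 645, 794 and 462 in erythrocytes against 149, 350 and 175 in ESC and 142, 149 and 237 in DE (log2 1.52 and 1.79, limma adjusted p = 0.0198 and 0.00627). Of 39 bins of the window, 11 were higher and 3 lower in erythrocytes than in ESC, against 4.64% higher and 66.7% lower over the 345 bins tested on the chromosome. Against DE, 12 were higher and 1 was lower, against 3.12% and 63.8% over 577 bins.

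By single fragments, every one of the 48 in the control region had a higher mean in erythrocytes than in ESC and in DE. The same held for 31 of 33 between the adult promoters and 27 of 53 in the embryonic globin stretch. In the 3′ and 5′ flanks it held for 50 of 130 and 56 of 145. Of the 46 with enough reads to test, 36 were past the threshold and higher than in ESC and none lower. Against DE, 39 were higher and none lower. The reads needed were summed over both cell types, and the control region held 1779 erythrocyte, 240 ESC and 618 DE reads. In DE against ESC only 35 of the 48 fragments had enough reads. Fragments with few ESC or DE reads were thus tested only through their erythrocyte reads and could hardly be called lower. The absence of lower calls therefore carries little weight. Over all fragments tested, 26.7% were higher in erythrocytes against ESC (266 tested) and 12.5% against DE (622 tested), while 2.63% and 24.9% were lower. Nearly all fragments deep enough to test against ESC lie in the window itself (255 of 266), so that background is largely the window. The median log2 difference in the control region was 2.75 against ESC and 2.76 against DE, beside 0.31 and -0.80 over all fragments tested. With fragments that had no read in 1 cell type set at 3 pooled reads, these medians were 2.81 and 3.19, beside 0.52 and -0.15. Between the adult promoters, 17 of 25 tested were higher than in ESC and 18 of 25 higher than in DE, with none lower. The medians there were 3.07 and 2.42, or 2.44 and 2.65 with absent reads set at 3. A rise of most fragments was thus not particular to the control region.

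Of the 3 fragments of the control region with the highest erythrocyte mean, 2 are described. The second highest, chr7:111019507-111020366, held no match to any of the 4 motifs and had 469, 480 and 832 in erythrocytes against 24.8, 52.4 and 0 in ESC and 13.6, 23.0 and 43.0 in DE (log2 4.38 ± 0.71 and 4.08 ± 0.46, limma adjusted p = 0.000276 and 0.00165). The third, chr7:111009748-111010461, had 572, 459 and 693 in erythrocytes against 0, 52.4 and 87.7 in ESC and 81.3, 51.7 and 32.3 in DE (log2 3.87 ± 0.73 and 3.22 ± 0.42, limma adjusted p = 0.000837 and 0.002). Its neighbour with the NF-E2 pair had 322, 439 and 139 in erythrocytes, 99.0, 0 and 87.7 in ESC and 81.3, 51.7 and 43.0 in DE, so that all erythrocyte libraries were above all others here too (log2 2.57 ± 0.82 and 2.07 ± 0.51, limma adjusted p = 0.0247 and 0.00993). That fragment is only 196 bases long, and its counts were 46, 7 and 25 reads in erythrocytes, ESC and DE.

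The lowest erythrocyte means were those of 3 neighbouring fragments, chr7:111005790-111005939, chr7:111005940-111006447 and chr7:111006448-111007025, with 20.3 ± 23.6, 60.0 ± 39.4 and 71.8 ± 46.3 (SD, n = 3). ESC and DE together had 1 read on these 3 fragments. Across the 48 fragments the erythrocyte mean had a Spearman rho of 0.40 with fragment length, -0.23 with GC content, 0.49 with the ESC mean and 0.52 with the DE mean. Fragments share libraries and neighbours share chromatin, so these are descriptions.

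**Figure D2:**
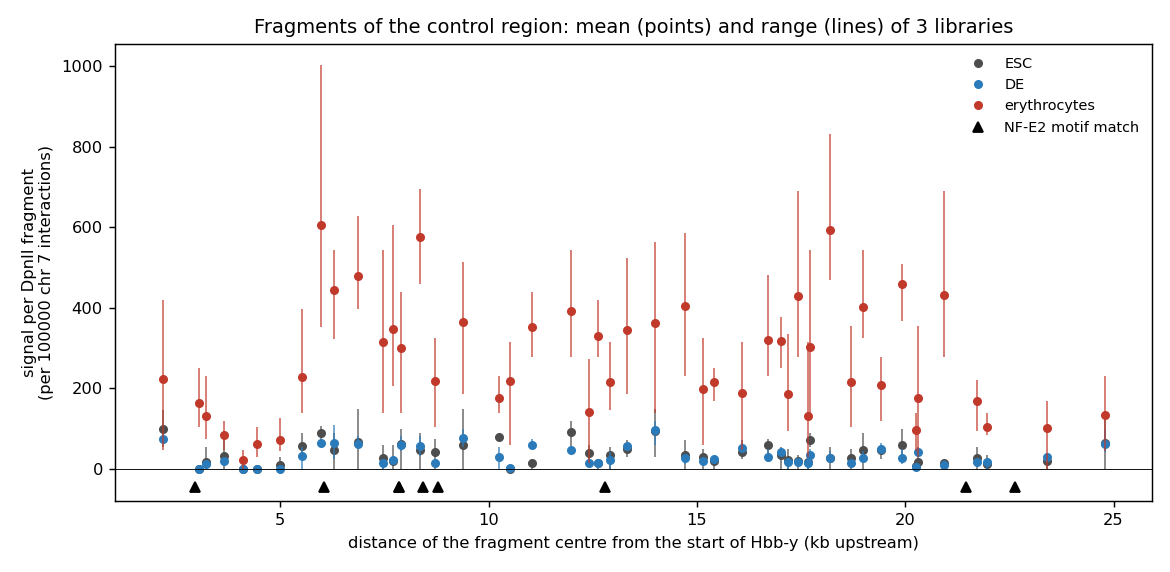
Signal of each of the 48 DpnII fragments of the control region (vertical axis, per 100000 chromosome 7 interactions) against the distance of its centre from the start of Hbb-y (horizontal axis, kb upstream). Points are means and lines the lowest and highest of 3 libraries; triangles mark the 9 NF-E2 motif matches. Erythrocyte means are the highest for every fragment.

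The embryonic globin stretch, which lies between the captured adult promoters and the control region, was not past the threshold in erythrocytes against either cell type. It had 9678, 9035 and 9067 in ESC, 7246, 6591 and 5657 in DE and 7049, 9503 and 6149 in erythrocytes, and the erythrocyte libraries overlapped both other cell types. The log2 difference was -0.31 ± 0.23 against ESC and 0.20 ± 0.20 against DE (limma adjusted p = 0.227 and 0.393). The call depended on the scaling. Against ESC the stretch was called lower when scaled to all interactions (-1.30, limma adjusted p = 0.0362) or to the window (-1.26, limma adjusted p = 0.00253) and without erythrocyte replicate 2 (-0.49, limma adjusted p = 0.0371), and was 0.54 with TMM factors (limma adjusted p = 0.15). Against DE it was called higher when the total left out 20 kb around the captured zones (0.52, limma adjusted p = 0.0427) and lower when scaled to the window (-1.11, limma adjusted p = 0.00429). Of its 51 fragments tested against ESC, 4 were higher and 4 lower in erythrocytes, beside 26.7% higher and 2.63% lower over all fragments tested. Of 52 tested against DE, 4 were higher and 2 lower, beside 12.5% and 24.9%.

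In erythrocytes the control region was contacted more per kb than the embryonic genes that lie nearer. Per kb, the control region held 0.25, 0.25 and 0.17 times the signal of the embryonic globin stretch in ESC and 0.25, 0.25 and 0.30 times in DE, while in erythrocytes it held 1.66, 2.18 and 2.02 times as much. The erythrocyte ratio was above 1 in every library and that of ESC and DE below 1 in every library. The difference in the mean log2 ratio was 3.14 against ESC and 2.86 against DE (exact two-sided permutation p = 0.1 each, n = 3, and 0.15 adjusted over 3 pairs). The enhancer capture of the same libraries gave 0.517 in ESC, 0.599 in DE and 3.06 in erythrocytes as geometric means. Its Hbb columns may rest on other fragments, as said above.

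None of the embryonic genes or pseudogenes passed the threshold in any pair. Hbb-y, an embryonic beta-like gene and the one nearest the control region, had 470, 367 and 410 over its 5 fragments in ESC, 441, 425 and 323 in DE and 703, 877 and 416 in erythrocytes (log2 0.61 ± 0.42 against ESC and 0.68 ± 0.38 against DE, limma adjusted p = 0.215 and 0.145). Its lowest erythrocyte library lay inside the range of ESC. Hbb-bh1, the other embryonic gene, had 817, 752 and 614 in ESC, 603, 351 and 376 in DE and 528, 606 and 509 in erythrocytes (log2 -0.40 ± 0.36 against ESC, limma adjusted p = 0.338). Hbb-bh2 had means of 403, 302 and 323 in ESC, DE and erythrocytes, the pseudogene Hbb-bh3 1211, 879 and 887, and the pseudogene Hbb-bh0, covered by 1 fragment, 141, 106 and 220. Their limma adjusted p-values against ESC and DE ran from 0.238 to 0.81.

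**Figure D3:**
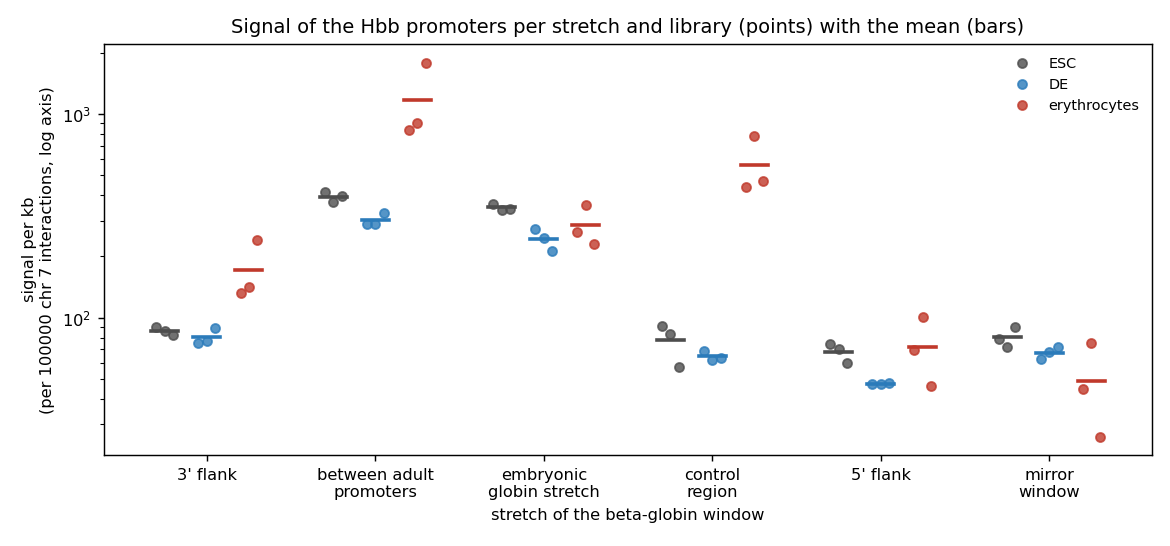
Signal of the Hbb promoters per kb (vertical axis, per 100000 chromosome 7 interactions, log scale) in the stretches of the window and the mirror window (horizontal axis), with 1 point for each of 3 libraries per cell type and a bar at their mean. The control region stands at 562 per kb in erythrocytes against 77.4 in ESC and 64.8 in DE, while the embryonic globin stretch stands at 284, 348 and 244.

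Erythrocyte signal was also higher on both sides of Hbb-b2 and below Hbb-b1, but not above Hbb-b1. The 5 kb above Hbb-b1 had 4678, 4299 and 5001 in ESC, 3213, 2971 and 2915 in DE and 2608, 3008 and 3190 in erythrocytes, lower than in ESC (log2 -0.67 ± 0.24, limma adjusted p = 0.033) and -0.05 ± 0.18 against DE (limma adjusted p = 0.805). The other 3 flanks of 5 kb were higher than in ESC, by 3.21 below and 3.45 above Hbb-b2 and by 1.07 below Hbb-b1 on the log2 scale (limma adjusted p = 0.000525, 0.000473 and 0.0163). The stretch between the adult promoters had 4975, 4457 and 4738 in ESC, 3471, 3465 and 3926 in DE and 10053, 10798 and 21452 in erythrocytes. Here replicate 3 was far above replicates 1 and 2, and all 3 were above the other cell types (log2 1.49 ± 0.30 and 1.87 ± 0.30, limma adjusted p = 0.00255 and 0.00201). Scaled to all interactions the difference fell to 0.50 against ESC and 0.97 against DE (limma adjusted p = 0.313 and 0.072). The 3′ flank had 5495, 5260 and 5031 in ESC, 4610, 4735 and 5485 in DE and 8089, 8668 and 14841 in erythrocytes (log2 0.95 ± 0.27 and 1.04 ± 0.25, limma adjusted p = 0.0122 and 0.0112), and scaled to all interactions -0.047 and 0.14. The call for the 3′ flank against ESC was lost without ESC replicate 1, 2 or 3 (limma adjusted p = 0.0751, 0.1 and 0.0898) and in the enhancer capture (0.544), and that against DE without DE replicate 1 or 2 (0.0566 and 0.059). Of its fragments, 8 of 61 tested were higher in erythrocytes than in ESC and 1 lower (26.7% and 2.63% over all tested), and 7 of 97 higher than in DE and 5 lower (12.5% and 24.9%), with medians of -0.32 and -0.36.

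The 5 fragments that rose most against ESC, with no overlap between libraries, all lay beside or between the adult genes. Each had at most 1 ESC and 3 DE reads and reached the minimum of 10 reads only through erythrocyte reads. Their p-values and lack of overlap therefore add little to the read counts. The fragment over the 3′ end of Hbb-b2, chr7:110959283-110961282, had 0, 17.5 and 0 in ESC, 0 in every DE library and 1392, 752 and 5871 in erythrocytes. In pooled reads these were 1, 0 and 258, a ratio of 247 against ESC with an exact 95% interval from 43.9 to 9788, and at least 259-fold higher against DE with its absent reads set at 3 over the group (limma adjusted p = 5.61e-07 and 0.000841). The next one, chr7:110958540-110959282, had 1 ESC, 3 DE and 156 erythrocyte reads (ratios of 149 and 156, limma adjusted p = 5.61e-07 and 0.000841). Between the adult promoters, chr7:110970617-110971167 had 0, 1 and 55 reads, chr7:110969782-110970417 had 0, 0 and 30, and chr7:110964861-110964988 had 0, 0 and 34, at least 17.5-fold, 9.57-fold and 10.8-fold higher than in ESC. The fragment over Hbb-b1 was less extreme, with 866, 647 and 877 in ESC, 488, 494 and 581 in DE and 1436, 815 and 3421 in erythrocytes (log2 1.00 ± 0.50 and 1.60 ± 0.52, limma adjusted p = 0.0971 and 0.0325). The call for Hbb-b1 against DE was lost without DE replicate 1, 2 or 3 or without erythrocyte replicate 1 (limma adjusted p = 0.102, 0.103, 0.088 and 0.0712) and when scaled to all interactions (0.283) and scaled to the window (0.601). That against ESC was made without erythrocyte replicate 2 (limma adjusted p = 0.0101), with edgeR (0.0118), DESeq2 (0.0471) and TMM factors (0.0248) and with all 3 cell types in the fit (0.0493).

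Some of these places held almost no ESC or DE reads at all. A run of 20 listed fragments between the adult promoters, chr7:110964839-110971167, had 300 erythrocyte reads and 2 ESC and DE reads, although the ESC and DE libraries had 54634 chromosome 7 reads against 13775 in erythrocytes. This run was chosen after its values were seen. In the whole window 20 fragments had at least 10 erythrocyte reads and at most 1 ESC or DE read, 12 of them between the adult promoters and 3 in the control region, and 9 had at least 10 ESC and DE reads and none in erythrocytes. Inbred mouse strains are known to differ in the adult genes of this cluster, reads were mapped to the C57BL/6 genome, and here cell type and strain cannot be told apart. With only those fragments counted that had a read in both ESC and DE, 43 of the 48 in the control region, the log2 difference of the control region was 2.78 against ESC and 3.00 against DE (limma adjusted p = 0.000442 and 0.0004). The 3′ flank was at 0.48 against ESC on such fragments and no longer past the threshold (limma adjusted p = 0.0819).

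The balance of the signal beside the 2 adult promoters also differed between cell types. In the 5 kb on both sides of each captured zone, the Hbb-b1 flanks held 10.3, 8.56 and 12.7 times the signal of the Hbb-b2 flanks in ESC, 5.81, 6.81 and 4.17 times in DE and 1.51, 1.59 and 1.15 times in erythrocytes. The 3 cell types did not overlap. Within 1 strain, DE lay below ESC (log2 difference -0.92, exact two-sided permutation p = 0.1, n = 3, and 0.1 adjusted over 3 pairs). Erythrocytes differ from both in strain as well, and the part of strain in their lower ratios was not tested. The Hbb-b2 flanks include fragments almost empty in ESC and DE. Of 17 listed fragments in the 5 kb above Hbb-b2, 3 had a read in both ESC and DE, against all 9 above Hbb-b1. The fragment just below the captured zone of Hbb-b2 had 258 erythrocyte reads and 1 ESC and DE read. The ratio was not computed on fragments read in both ESC and DE. In the enhancer capture of the same libraries the ratios were between 0.21 and 1.19 in all 9 and the cell types overlapped. Since both promoters share 1 viewpoint in the files, a contact of the control region with Hbb-b1 and one with Hbb-b2 cannot be told apart.

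**Figure D4:**
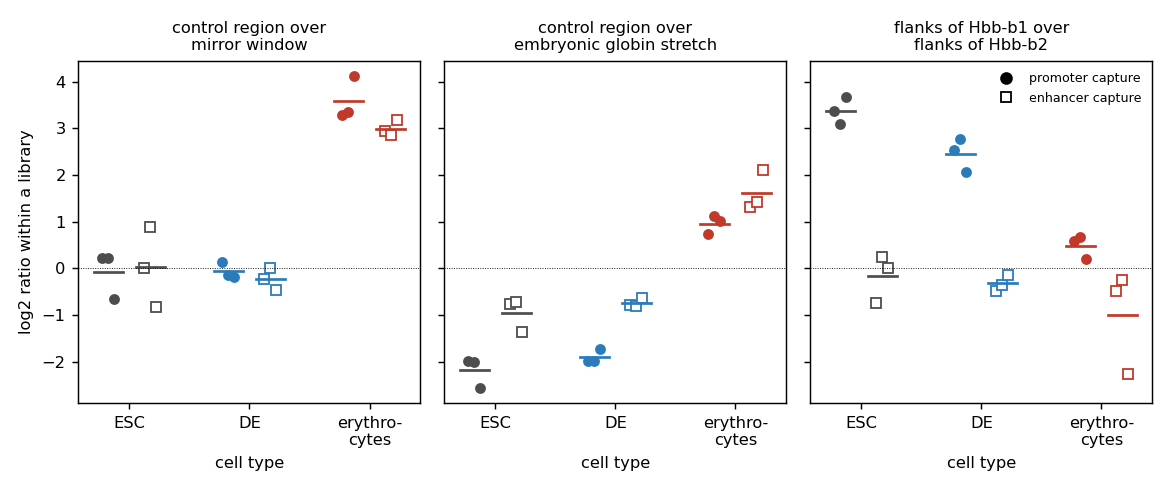
Log2 ratios of signal within a library (vertical axis) by cell type (horizontal axis) for the control region over its mirror window and over the embryonic globin stretch, both per kb, and for the 5 kb flanks of Hbb-b1 over those of Hbb-b2. Filled circles are the promoter capture and open squares the enhancer capture of the same 3 libraries, with bars at the means. The first 2 ratios are highest in erythrocytes in both captures, and the last differs between the captures, with means of 3.38 and -0.16 in ESC.

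Relative to chromosome 7, fewer window fragments were called lower than higher in erythrocytes. Of the 255 window fragments tested against ESC, 71 were higher and 7 lower, and of 330 tested against DE, 78 were higher and 12 lower. Over all 266 fragments tested against ESC the calls were the same 71 and 7 (26.7% and 2.63%), so that background is largely the window. Over all 622 tested against DE they were 78 and 155 (12.5% and 24.9%). The split of window fragments moved with the scaling. Against ESC it was 20 higher and 10 lower scaled to all interactions, 52 and 13 with TMM factors and 28 and 17 scaled to the window. Against DE it was 35 and 20, 66 and 38, and 48 and 60, in the same order. Scaled to the window, lower fragments thus outnumbered higher ones against DE. The median over all fragments tested moved with it, from 0.31 to -0.27, -0.06 and -0.44 against ESC and from -0.80 to -0.87, -1.20 and -2.27 against DE. The 5 that fell most against ESC with no overlap were 3 in the olfactory receptor flanks, at chr7:110916906-110917177 in Olfr69, chr7:111080956-111081265 and chr7:111095848-111096912 in Olfr633, with 1, 1 and 2 erythrocyte reads against 13, 12 and 12 ESC reads, and 2 neighbours near Hbb-bh3. For the first 3 the ratio of erythrocytes to ESC was 0.0736, 0.0797 and 0.159, with exact 95% intervals from 0.00173 to 0.49, 0.00187 to 0.539 and 0.0173 to 0.716. These neighbours, chr7:110980132-110980384 and chr7:110980385-110980438, had 495, 454 and 702 and 347, 419 and 673 in ESC, and 103, 167 and 185 and 29.3, 251 and 185 in erythrocytes (log2 -1.81 ± 0.52 and -1.90 ± 0.65, limma adjusted p = 0.0129 and 0.0311). Against DE the largest falls were in chr7:110903197-110903958 in Olfr630 and chr7:111098917-111099537, with no erythrocyte read and 21 and 14 DE reads (at least 2.33-fold and 1.55-fold lower), and in the fragment in Olfr69 again. The falls against DE depend on the method: edgeR called 1 window fragment lower and DESeq2 none, with 93 and 77 higher.

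The share of the window and some summed regions were lower in DE than in ESC, but single fragments hardly differed. None of the 293 fragments tested passed the threshold in limma, as none of the 861 tested on the chromosome did (0% in either direction), with 33 window fragments at an unadjusted p under 0.05. edgeR called 1 window fragment, lower in DE, and DESeq2 none. Summed over regions, the embryonic globin stretch and the 5′ flank were lower in DE, each with a log2 difference of -0.52 ± 0.10 (limma adjusted p = 0.0227 and 0.0272). The 5′ flank had 5421, 5173 and 4417 in ESC, 3464, 3471 and 3495 in DE and 5070, 7414 and 3375 in erythrocytes, and ESC and DE did not overlap in either region. Both calls were lost without DE replicate 2 (limma adjusted p = 0.129 and 0.235), without ESC replicate 1 (0.111 and 0.133), without ESC replicate 2 (0.130 and 0.136) and with TMM factors (0.242 for both). Of 612 bins tested on the chromosome 0.163% were lower in DE, and the bin called in the window was that of chr7:110980001-110985000 with Hbb-bh3 (log2 -0.56, limma adjusted p = 0.0272). The 5 kb above and below Hbb-b1 were also lower in DE, with no overlap between libraries. Their log2 differences were -0.62 ± 0.10 and -0.46 ± 0.10 (limma adjusted p = 0.0139 and 0.0439). Neither flank of Hbb-b2 passed the threshold (limma adjusted p = 0.529 below and 0.672 above).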

How the data were processed

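NG Capture-C libraries of ESC, DE and erythrocytes (3 each) were used for the Hbb viewpoint of a promoter capture, with a second, enhancer capture of the same 9 libraries as an alternative. Which Hbb fragments the second capture pulled down was not checked here. Per the labels and the study's methods, fragments were captured with biotinylated oligonucleotides, sequenced as paired ends, trimmed with Trim Galore, aligned with Bowtie to mm9 and assigned to DpnII fragments by the Capture-C scripts. The deposited signal of each fragment is scaled by the authors to 100000 interactions per viewpoint and library. Whole reads were recovered from its steps (100% of values whole within 0.05).

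Signal was rescaled to 100000 interactions on chromosome 7. Each fragment that reached 10 reads summed across the compared libraries was tested with limma 3.58.1 (R 4.3.3; lmFit, eBayes with trend) on log2(signal + 10), so that fold changes of low fragments are understated, with only the pair of cell types in the fit and Benjamini-Hochberg adjustment over all fragments tested on chromosome 7 (threshold 0.05). Regions, genes and 5 kb bins were fitted together in the same way. Shares and ratios within a library were compared with exact two-sided permutation tests, in which 3 against 3 cannot go below 0.1, and ratios had 0.5 reads added to both sides. Pooled ratios had exact intervals, and cell types with no read were set at 3 reads over the group. Intervals cover counting error only, since the reads carry no molecular identifiers. edgeR 4.0.16 and DESeq2 1.42.0, the latter named in the study's methods, were run on the recovered reads as alternatives. Data were also simulated from the pooled means of these libraries, with 4-fold changes and 1 spread between replicates set for every cell type. The limma fit of fragments recovered 67.7% of changes for erythrocytes against ESC with 2.63% false calls (250 fragments). It recovered 55.0% with 16.2% for erythrocytes against DE (729 fragments) and 63.8% with 15.2% for DE against ESC (742 fragments). Real erythrocyte replicates differed more, with a chi-square per degree of freedom of 3.03 to 11.1 between 2 libraries over 5 kb bins. That value was 1.19 to 1.34 in ESC and 1.07 to 1.36 in DE. The simulated rates therefore do not describe the comparisons with erythrocytes.

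Named were all beta-like globin genes, the control region and its mirror window, the up to 5 fragments that rose and that fell most against ESC and up to 3 in other pairs, past the threshold and without overlap between libraries, and the 3 highest and lowest fragments of the control region by erythrocyte mean. The NF-E2 pair fragment was added for its motif. The highest fragment of the control region is not reported here. The members and lists were chosen with earlier results of these data known. Gene positions are from the Gencode annotation of mm9, and all 78338 listed chromosome 7 fragments end at GATC in the mm9 reference sequence (NCBIM37), from which the sequences were read.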

Additional observations from a re-analysis of the deposited data

How the results depend on the processing

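The control region kept its direction and its side of the threshold against ESC and DE under all 21 alternatives run for each, with log2 differences from 1.84 to 3.68 and from 1.75 to 3.38. These include the second capture, whose Hbb columns may rest on other fragments. The count of window fragments past the threshold against ESC (78) was 51 with DESeq2, 51 with a pseudocount of 2, 42 with no minimum, 30 scaled to all interactions, 45 scaled to the window, 25 in the second capture, 14 as 5 kb bins and 33 to 64 with 1 library left out. It was 33 without erythrocyte replicate 1 and 44 without replicate 2. Against DE (90) it was 55 scaled to all interactions, 39 in the second capture, 13 as 5 kb bins and 64 to 108 with 1 library left out. For DE against ESC (0) it was 1 with edgeR, 1 with a pseudocount of 50, 13 with no minimum, 1 scaled to all interactions, 2 in the second capture and 1 as 5 kb bins.

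The embryonic globin stretch against ESC (-0.31) was -1.30 scaled to all interactions, 0.54 with TMM factors, -1.26 scaled to the window and -0.49 to -0.18 with 1 library left out. Against DE (0.20) it was -0.69 scaled to all interactions, 0.52 with the total taken without 20 kb around the captured zones and -1.11 scaled to the window. For DE against ESC (-0.52) its call was lost with a pseudocount of 2 (-0.52), TMM factors (-0.35), all 3 cell types in the fit (-0.52), the second capture (-0.71), the window as total (-0.14) and fragments read in both ESC and DE (-0.52), and it ranged from -0.60 to -0.42 with 1 library left out. The control region of DE against ESC was 0.15 scaled to the window. The mirror ratio of DE against ESC (0.02) was -0.12 for 2 to 15 kb, -0.25 in the second capture and -0.27 to 0.16 with 1 library left out.

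Of the values of single genes, flanks and fragments, 49 turned sign, 58 lost and 27 gained a call, and 747 did neither. The cause was not tested. Against ESC the turned values were, scaled to all interactions, -0.047 for the 3′ flank, -0.98 for the 5′ flank, -0.40 for Hbb-bh0 and -0.34 for Hbb-y. Scaled to the window they were -0.93 for the 5′ flank, -0.48 for Hbb-bh0 and -0.32 for Hbb-y. With TMM factors they were 0.0069 for the mirror window, 0.30 for Hbb-bh3, 0.65 for Hbb-bh2 and 0.44 for Hbb-bh1. In the second capture they were 3.07 for Hbb-bh2 and 0.10 for Hbb-bh1. The 5′ flank was -0.16 on fragments read in both ESC and DE, and -0.27 to 0.30 with 1 library left out (-0.075 without ESC replicate 3). Hbb-bh2 was 0.073 with the total taken without 20 kb. With 1 library left out, Hbb-bh2 ranged from -0.59 to 0.19 and Hbb-bh0 from -0.053 to 0.90.

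Against DE they were, scaled to all interactions, -0.36 for the 5′ flank, -0.69 for Hbb-bh2, -0.52 for Hbb-bh1 and -0.18 for Hbb-y, and scaled to the window -0.28 for the 3′ flank, -0.79 for the 5′ flank, -1.16 for Hbb-bh2, -0.97 for Hbb-bh1, -0.30 for Hbb-bh0 and -0.62 for Hbb-y. Hbb-bh3 was 0.074 with edgeR, 0.064 with DESeq2, 0.20 with the total taken without 20 kb, 0.043 with TMM factors, 0.28 in the second capture, 0.045 with the trans level subtracted and -0.40 to 0.35 with 1 library left out. Hbb-bh2 ranged from -0.068 to 0.40 with 1 library left out. For DE against ESC they were 0.071 with TMM factors and 0.28 scaled to the window for the 3′ flank, 0.13 scaled to the window for the mirror window, 0.63, 2.92 and 1.78 in the second capture for Hbb-b1, Hbb-bh2 and Hbb-bh0, 0.044 scaled to the window and -0.73 to 0.047 with 1 library left out for Hbb-bh2, and for Hbb-y 0.087 with TMM factors, 0.30 scaled to the window and -0.16 to 0.064 with 1 library left out.

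With the replicate number as a block, the counts were 78, 101 and 0, the control region stood at 2.83 and 3.06, and no call on a region or gene changed. Deviations of libraries with the same number had correlations from -0.095 to 0.044. Such low values cannot show that the libraries are unpaired, and whether the numbers pair them is not known. Scaling to the window, fragments read in both ESC and DE, subtraction of the trans level and the mirrors about 1 promoter were added after the data were seen. Mirroring about the nearest edges gives the same window by construction. Fragments of the control region rest on few ESC reads (240 in all), which limits the precision of single fragments there.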
